A study of Rattus norvegicus with 24 samples.

Results

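Estrogen sulfation and the conversion of steroids were followed in the rat mammary gland through 9 genes: Sult1e1, Sts, Hsd17b1, Hsd17b2, Hsd17b12, Hsd11b1, Cyp19a1, Cyp1b1 and Srd5a1. Every probe set of the array annotated to 1 of these genes alone was taken. Of the 9 genes, 8 had such a probe set, and they gave 10 of the 31042 probe sets tested, which cover 14217 genes. Cyp19a1 had 3 probe sets (1369444_at, 1379643_at and 1382425_at) and each of the other genes had 1. Srd5a1, the steroid 5-alpha-reductase that reduces testosterone and other steroids, was not analysed here.

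The active estrogen estradiol reaches its receptors only while it is free. The sulfotransferase Sult1e1 adds a sulfate group to estradiol and estrone, which then no longer bind the receptor, and the steroid sulfatase Sts takes the sulfate off again. Aromatase, the product of Cyp19a1, makes estrogens from androgens, and the 17-beta-hydroxysteroid dehydrogenases move estrogens between the weak form estrone and the potent form estradiol. Cyp1b1 hydroxylates estradiol to catechol estrogens, and Hsd11b1 makes active glucocorticoid from its inactive ketone. In the mammary gland of several species the fat pad around the ducts, and not the epithelium alone, carries some of these enzymes.

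Sprague-Dawley rats of both sexes received 17β-estradiol, the main ovarian estrogen, by subcutaneous osmotic pump from weaning on postnatal day 21 to postnatal day 33. The dosed groups were males and females at 0.1, 1 and 10 µg per kg body weight per day, and the control groups were males and females whose pumps delivered a dose of 0. The labels name no removal of the gonads in any group. Whole abdominal gland pairs were frozen and their RNA was hybridised to 24 Affymetrix arrays, 3 for each of the 8 groups of sex and dose. Whether each array holds its own animal is not stated, and p-values cover only the spread among arrays. In whole glands, fewer cells of a type and less RNA per cell cannot be told apart.

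The deposited values are signed log values, taken here as log2, in which each probe set is centred near 0 within each sex, not always on the median of the 12 arrays of that sex. They keep differences between doses within a sex. They keep neither absolute levels nor a difference in level between males and females, so neither the tissue nor the sexes could be checked against defining markers, and no enzyme could be ranked against another. All values below are on this log2 scale, differences are the dosed group minus the 0 group of the same sex, and folds assume log2. Tests are from limma with Benjamini-Hochberg adjustment over all 31042 probe sets and a threshold of 0.05. Of the arrays, 5 stood apart with a mean of 15 hepatocyte genes, such as albumin and the fibrinogens, more than 1 above the median of their sex. They were replicates 2 and 3 of the males at 0 (1.44 and 2.61), replicate 7 of the males at 1 (1.16), replicate 1 of the females at 0 (2.43) and replicate 7 of the females at 1 (0.90). Calls are therefore also given without these 5 arrays, which leaves replicate 1 as the only male control, assumed to vary like the arrays of the other groups. That array itself had the widest spread of the male arrays, with an SD of 0.395 over all probe sets, against 0.190 to 0.298 in the other 11, and the lowest beta-actin 3′ minus 5′ difference (-0.56), so all male differences from 0 without the 5 arrays rest on it.

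The promoters of 4 of the 5 enzymes that changed in males are shown first, because these genes fell together at the highest dose. Each line holds the 250 bases before the RefSeq start of the gene on build GRCr8, read 5′ to 3′ on the strand of the gene. Capitals mark matches on either strand to the estrogen receptor half-site AGGTCA or to GCGTG, the core bound by the dioxin receptor, a known regulator of Cyp1b1.
Sult1e1: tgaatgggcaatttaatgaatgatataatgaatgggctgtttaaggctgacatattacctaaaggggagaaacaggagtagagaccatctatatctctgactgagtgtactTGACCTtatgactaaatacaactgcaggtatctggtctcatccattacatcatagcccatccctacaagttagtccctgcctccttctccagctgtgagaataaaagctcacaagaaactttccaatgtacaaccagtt
Sts: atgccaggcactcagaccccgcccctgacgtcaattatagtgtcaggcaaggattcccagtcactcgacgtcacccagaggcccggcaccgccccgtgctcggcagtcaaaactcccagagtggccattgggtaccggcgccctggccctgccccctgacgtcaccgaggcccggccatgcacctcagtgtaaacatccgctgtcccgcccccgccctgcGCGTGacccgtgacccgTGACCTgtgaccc
Hsd17b12: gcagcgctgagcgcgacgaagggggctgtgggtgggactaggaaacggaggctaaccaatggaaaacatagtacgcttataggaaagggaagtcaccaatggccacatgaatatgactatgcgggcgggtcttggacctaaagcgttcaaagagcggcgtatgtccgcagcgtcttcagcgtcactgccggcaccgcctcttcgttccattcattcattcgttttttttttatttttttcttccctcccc
Cyp1b1: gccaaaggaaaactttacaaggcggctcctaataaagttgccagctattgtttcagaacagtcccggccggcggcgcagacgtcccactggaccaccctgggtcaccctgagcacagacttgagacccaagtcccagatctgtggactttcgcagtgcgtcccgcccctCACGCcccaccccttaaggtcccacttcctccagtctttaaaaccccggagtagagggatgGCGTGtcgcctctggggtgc
The Sult1e1 window lies at chr14:20701230-20701479 on the plus strand, and holds the half-site once, starting at position -139 from the gene's start. The Sts window, chrX:46102510-46102759 on the plus strand, holds the half-site at -13 and GCGTG at -30. The Hsd17b12 window, chr3:100568899-100569148 on the minus strand, holds neither. The Cyp1b1 window, chr6:21094315-21094564 on the plus strand, holds GCGTG at -81 and -20 and no half-site. The half-site occurs in 14.1% of 33469 rat promoter windows of this length and GCGTG in 25.9%. The palindromic estrogen response element, GGTCA and TGACC with 3 bases between, occurs in 0.0239% (8 windows) and in none of these 4. Of the enzymes with a probe set, Hsd11b1, Hsd17b1, Hsd17b2 and Cyp19a1 had no match in the promoter table.

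At 10 µg per kg per day, 5 of the 10 probe sets fell in males and 0 rose. They belong to Sult1e1, Sts, Hsd17b12, Hsd11b1 and Cyp1b1, and their differences lay between -2.08 and -0.70. Over all probe sets, 9.64% fell and 7.81% rose in this comparison (17.5% in all). The median difference was -0.46 over the 10 probe sets and -0.01 over all 31042. The 3 male arrays at 10 lay wholly below the 3 at 0 for the same 5 probe sets, and over all probe sets 18.9% lay wholly below. In females at the same dose 0 of the 10 probe sets passed the threshold, where 1.86% of all probe sets did. Of the 10, 1 had an unadjusted p under 0.05, beside 4040 of all 31042.

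**Figure D1:**
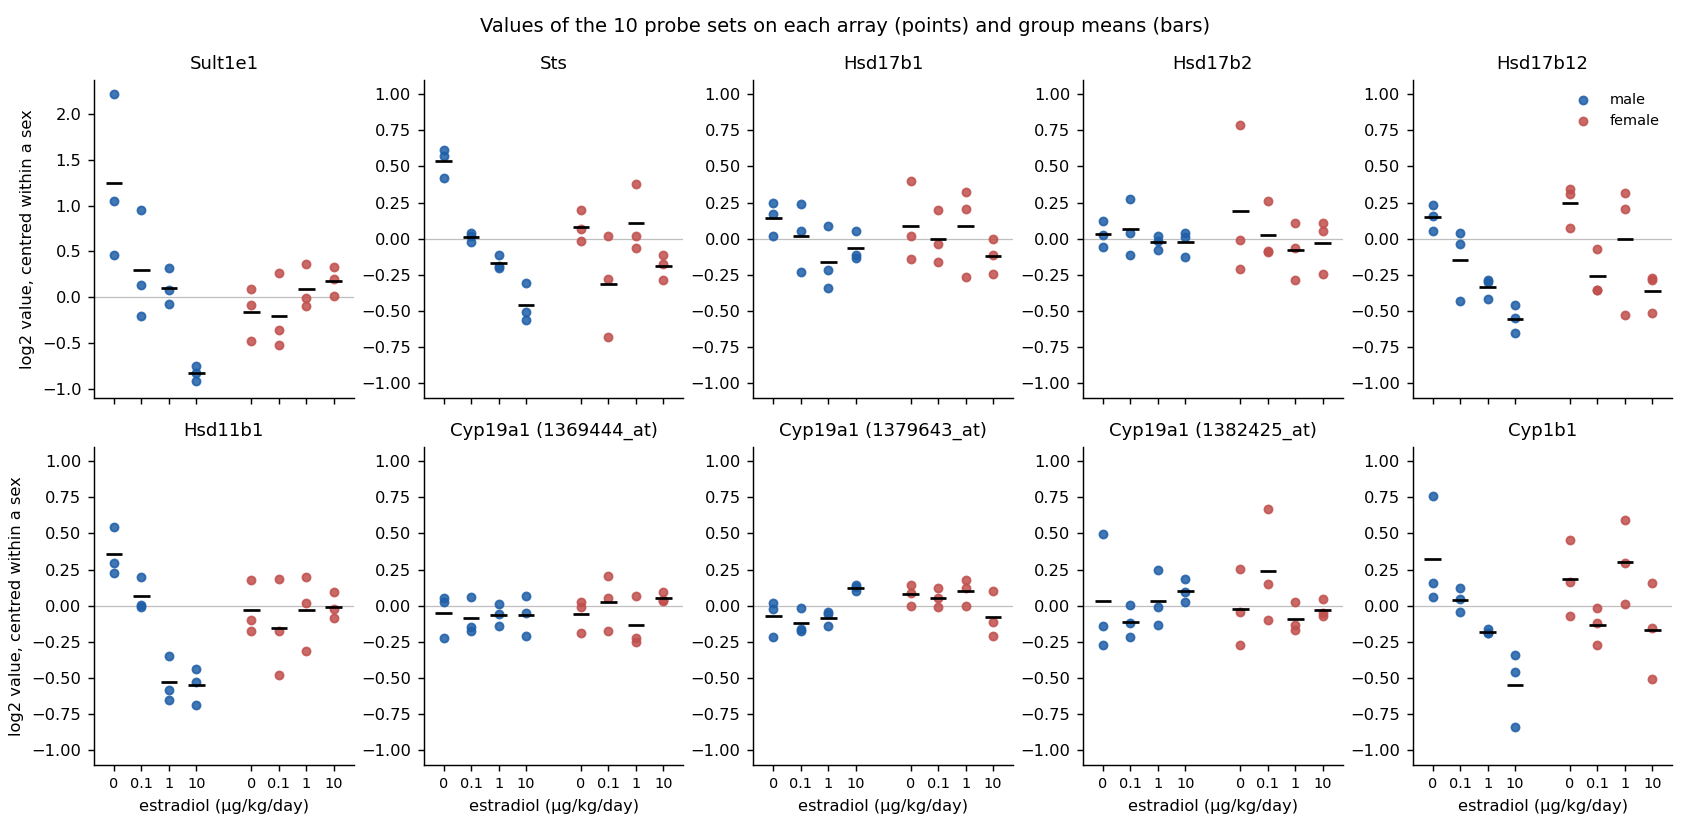
Values of the 10 probe sets on each array (vertical axis, log2 value centred within each sex, with a wider scale for Sult1e1) at each estradiol dose (horizontal axis, µg per kg per day). Each point is 1 array, males are blue and females red, and the black line is the mean of 3 arrays. Male means of Sult1e1, Sts, Hsd17b12, Hsd11b1 and Cyp1b1 step down from dose 0 to dose 10, while the female points of Sult1e1 and Hsd11b1 at 10 overlap those at 0.

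Sult1e1 (probe set 1368733_at), the estrogen sulfotransferase, had, in males, the largest difference at 10 and the widest range of the 10 probe sets. In males it read -0.76, -0.83 and -0.92 at 10, against 1.05, 0.47 and 2.22 at 0. All 3 arrays at 10 lay below every array at any other dose, and the controls themselves spread over more than 1 log2 unit. The means were -0.83 ± 0.08 at 10 and 1.25 ± 0.89 at 0 (SD, n = 3 each), a difference of -2.08 ± 0.33 (SE), or a fold of 0.236 with a 95% interval of 0.146 to 0.383. The adjusted p in limma was 0.00035. Leaving out any 1 of the 6 arrays kept the fall past the threshold, with differences between -2.47 and -1.59. Replicate 3 of the males at 0, which held the highest Sult1e1 value, 2.22, also held the highest hepatocyte mean of the males. Without the 5 arrays of high hepatocyte mean the difference was -1.89 with an adjusted p of 0.00784. Rat Sult1e1 is known from the male liver as well. The mean of the hepatocyte genes correlated with Sult1e1 at r = 0.65 over the 12 male arrays, which share doses and controls. Among the male arrays of high hepatocyte mean, replicates 2 and 3 at 0 read 0.47 and 2.22, and replicate 7 at 1 read -0.07. Replicate 1 at 0, not among them, read 1.05. The source of the Sult1e1 values was not tested.

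At the lower doses the male Sult1e1 values lay between those extremes. They were -0.20, 0.13 and 0.95 at 0.1 and -0.07, 0.07 and 0.31 at 1. The group at 0.1 overlapped the controls, and the group at 1 lay wholly below them, as did 14.3% of all probe sets. The differences from 0 were -0.95 ± 0.33 at 0.1 (adjusted p = 0.355) and -1.14 ± 0.33 at 1 (adjusted p = 0.061), neither past the threshold. Without replicate 2 of the males at 0 the difference at 1 passed it (-1.53, adjusted p = 0.028).

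In females Sult1e1 took no such course. It read 0.19, 0.33 and 0.01 at 10, against 0.09, -0.48 and -0.09 at 0, and the groups overlapped. The difference was 0.34 ± 0.33 (adjusted p = 0.759), with a 95% interval of -0.36 to 1.03 that reaches no fall as large as the male one. At 1 the values were -0.01, -0.10 and 0.37, and at 0.1 they were 0.26, -0.36 and -0.53. All 12 female arrays lay within 0.89 log2 units, against 3.14 in the 12 male arrays. The interaction at 10, the male difference from 0 minus the female one, was -2.42 ± 0.47 and passed the threshold (adjusted p = 0.0218). Over all probe sets 1.28% passed for the interaction, and 2 of the 10 members did. The Sult1e1 call was lost without replicate 2 or 3 of the females at 0 or replicate 10 of the females at 10, with adjusted p values of 0.0562, 0.0601 and 0.057, while the value stayed between -2.81 and -1.93.

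Sts (1368372_at), which releases free estrogen from its sulfate, had the smallest p of the 10 probe sets. In males it read -0.31, -0.56 and -0.51 at 10, against 0.57, 0.61 and 0.42 at 0. The means, -0.46 ± 0.13 at 10 and 0.53 ± 0.10 at 0 (SD, n = 3 each), gave a difference of -0.99 ± 0.13 and a fold of 0.502 (95% interval 0.414 to 0.61, adjusted p = 7.88e-05). The male groups did not overlap at any step of dose: 0.02, 0.04 and -0.02 at 0.1 lay wholly below the controls (as 10.8% of all probe sets did), -0.20, -0.19 and -0.11 at 1 lay wholly below those at 0.1 (6.75% of all), and the arrays at 10 lay wholly below those at 1 (9.72% of all). The differences between these neighbouring doses above 0, -0.18 ± 0.13 for 1 minus 0.1 and -0.29 ± 0.13 for 10 minus 1, did not pass the threshold. The fall at 1 also passed the threshold (-0.70 ± 0.13, adjusted p = 0.00873) and that at 0.1 did not (-0.52 ± 0.13, adjusted p = 0.316). Without replicate 1 of the males at 0 the adjusted p at 1 was 0.0547. Without the 5 arrays of high hepatocyte mean it was 0.116 at 1 (-0.72) and 0.01 at 10 (-1.03). The sulfotransferase and the sulfatase, which work in opposite directions, thus both fell in males at 10.

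Female Sts values were lower at 10 than at 0 by less. They read -0.29, -0.17 and -0.11 at 10, against 0.20, -0.02 and 0.07 at 0. The groups did not overlap, as in 10.2% of all probe sets that lay wholly below the controls, but the difference of -0.27 ± 0.13 missed the threshold (adjusted p = 0.401). The interaction at 10, -0.72 ± 0.19, missed it too (adjusted p = 0.0658). The female values at 1 were 0.02, 0.38 and -0.07, and those at 0.1 were 0.02, -0.28 and -0.68, so that the lowest female array, replicate 6, was at the lowest dose. Replicate 4 of that group had the widest spread of the female arrays, with an SD of 0.485 over all probe sets, against 0.186 to 0.328 in the other 11. The difference at 0.1 was -0.40 ± 0.13 (adjusted p = 0.303) with replicate 4 and -0.56 ± 0.13 without it (adjusted p = 0.0456), which was past the threshold.

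Hsd11b1 (1386953_at), which regenerates active glucocorticoid, was the single member to pass the threshold both in males at 1 and in the interaction at 10. In males it read -0.68, -0.53 and -0.44 at 10 and -0.65, -0.35 and -0.58 at 1, against 0.30, 0.55 and 0.23 at 0. The groups at 1 and 10 covered nearly the same range, and both lay wholly below the controls. The differences from 0 were -0.88 ± 0.15 at 1 (fold 0.542, adjusted p = 0.00535) and -0.91 ± 0.15 at 10 (fold 0.533, adjusted p = 0.000538), and 10 differed from 1 by -0.02 ± 0.15 (95% interval -0.34 to 0.30). The male values at 0.1 were 0.01, 0.20 and -0.01, with a difference from 0 of -0.29 ± 0.15 (adjusted p = 0.443). Hsd11b1 was the single member to differ between 10 and 0.1 in males (-0.62 ± 0.15, adjusted p = 0.0242), where 4.45% of all probe sets did. Without the 5 arrays of high hepatocyte mean the difference from 0 was -0.76 at 1 (adjusted p = 0.0961) and -0.85 at 10 (adjusted p = 0.0211).

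In females Hsd11b1 read 0.09, -0.03 and -0.09 at 10, against 0.18, -0.18 and -0.10 at 0, and the groups overlapped. The difference was 0.02 ± 0.15 (adjusted p = 0.973), with a 95% interval of -0.29 to 0.34. The interaction at 10 was -0.93 ± 0.22 and passed the threshold (adjusted p = 0.0389). This call was narrow: it was lost in 10 of 12 fits without 1 array, with an adjusted p of up to 0.11, although the value stayed between -1.04 and -0.84. Without the 5 arrays of high hepatocyte mean its adjusted p was 0.0787, and that of Sult1e1 was 0.0298. H6pd, which supplies Hsd11b1 with its cofactor in the endoplasmic reticulum, also fell in males at 10 (-0.41 ± 0.09, adjusted p = 0.00364), and in females its difference was -0.16 ± 0.09 (adjusted p = 0.467).

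Among the 17-beta-hydroxysteroid dehydrogenases, Hsd17b12 fell in males and the other 2 were not called in either sex. Hsd17b12 (1368051_at) reduces estrone to estradiol in some settings and has a main role in the elongation of fatty acids. In males it read -0.46, -0.65 and -0.55 at 10, against 0.06, 0.23 and 0.16 at 0. The groups were apart, with a difference of -0.70 ± 0.17, a fold of 0.615 (95% interval 0.483 to 0.782) and an adjusted p of 0.00703. At 1 the difference was -0.48 ± 0.17 (adjusted p = 0.114) and at 0.1 it was -0.29 ± 0.17 (adjusted p = 0.466). The call at 10 was lost after quantile normalization (adjusted p = 0.0781) and without the 5 arrays of high hepatocyte mean (-0.61, adjusted p = 0.131).

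Hsd17b12 was also the enzyme nearest to the threshold in females. It read -0.27, -0.29 and -0.52 at 10, against 0.35, 0.07 and 0.31 at 0, and the groups did not overlap. The difference of -0.60 ± 0.17 had an adjusted p of 0.0704. The interaction at 10 was -0.10 ± 0.23 (adjusted p = 0.85, 95% interval -0.59 to 0.39), so the male and female differences for this enzyme lay within 1 SE of each other. The female group at 0.1 also lay wholly below the controls, with -0.07, -0.35 and -0.36 (difference -0.50 ± 0.17, adjusted p = 0.282), whereas 6.58% of all probe sets did so. At 1 the female arrays split, with 0.21 and 0.31 near the controls and -0.53 below every array at 10.

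Hsd17b1 (1369292_at), which reduces estrone to estradiol, read 0.06, -0.13 and -0.11 in males at 10, against 0.17, 0.24 and 0.02 at 0. In females it read -0.24, -0.11 and 0.00 at 10, against 0.02, 0.40 and -0.14 at 0. The groups overlapped in both sexes. The difference was -0.21 ± 0.16 in each sex, with 95% intervals of -0.55 to 0.13, which do not reach the male difference of Hsd17b12.

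Hsd17b2 (1387156_at), which oxidises estradiol back to estrone, read -0.13, 0.01 and 0.04 in males at 10, against -0.06, 0.03 and 0.12 at 0. The difference was -0.06 ± 0.18 (95% interval -0.44 to 0.33). In females it read 0.11, -0.24 and 0.05 at 10, against 0.79, -0.01 and -0.21 at 0, a difference of -0.22 ± 0.18. The single high value, 0.79, came from replicate 1 at 0, the female array with the highest hepatocyte mean, and Hsd17b2 is strongly expressed in liver. Over the 12 female arrays its values correlated with the hepatocyte mean at r = 0.73, which includes replicate 1 at 0, the highest array on both. Replicate 7 at 1, with the next highest hepatocyte mean (0.90), read -0.07. The source of the high value was not tested.

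For aromatase, none of the 3 Cyp19a1 probe sets passed the threshold in any comparison of a dose with 0 or in an interaction. 1379643_at read 0.10, 0.13 and 0.14 in males at 10, against -0.02, -0.22 and 0.02 at 0. The groups did not overlap, as in 18.2% of all probe sets that lay wholly above the controls, but the difference of 0.20 ± 0.08 missed the threshold (adjusted p = 0.104). The other 2 probe sets, 1369444_at and 1382425_at, overlapped in males, with differences of -0.01 ± 0.11 and 0.07 ± 0.19. In females at 10 the differences ran from -0.16 to 0.11 over the 3 probe sets, and 1369444_at lay wholly above its controls (0.03, 0.10 and 0.04 at 10, against 0.02, -0.19 and -0.01 at 0), as did 9.67% of all probe sets. These values are centred, so whether the probes measured aromatase above background in either sex was not known.

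Cyp1b1 (1368990_at), which makes catechol estrogens, read -0.46, -0.84 and -0.34 in males at 10, against 0.76, 0.06 and 0.16 at 0. The groups did not overlap, and replicate 1 stood above the other controls. The difference was -0.87 ± 0.19, or a fold of 0.547 (95% interval 0.413 to 0.723, adjusted p = 0.00446). Without any 1 array it stayed past the threshold, between -1.005 and -0.66. Without the 5 arrays of high hepatocyte mean it was -1.30, but there the only male control left is replicate 1, the highest of the controls for Cyp1b1. The male values at 1 were tight, at -0.19, -0.16 and -0.19, and lay wholly below the controls (-0.51 ± 0.19, adjusted p = 0.154). In females Cyp1b1 read -0.51, -0.16 and 0.16 at 10, against 0.46, 0.17 and -0.07 at 0, and the groups overlapped (-0.35 ± 0.19, adjusted p = 0.475). The interaction at 10 was -0.52 ± 0.27 (adjusted p = 0.309).

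**Figure D2:**
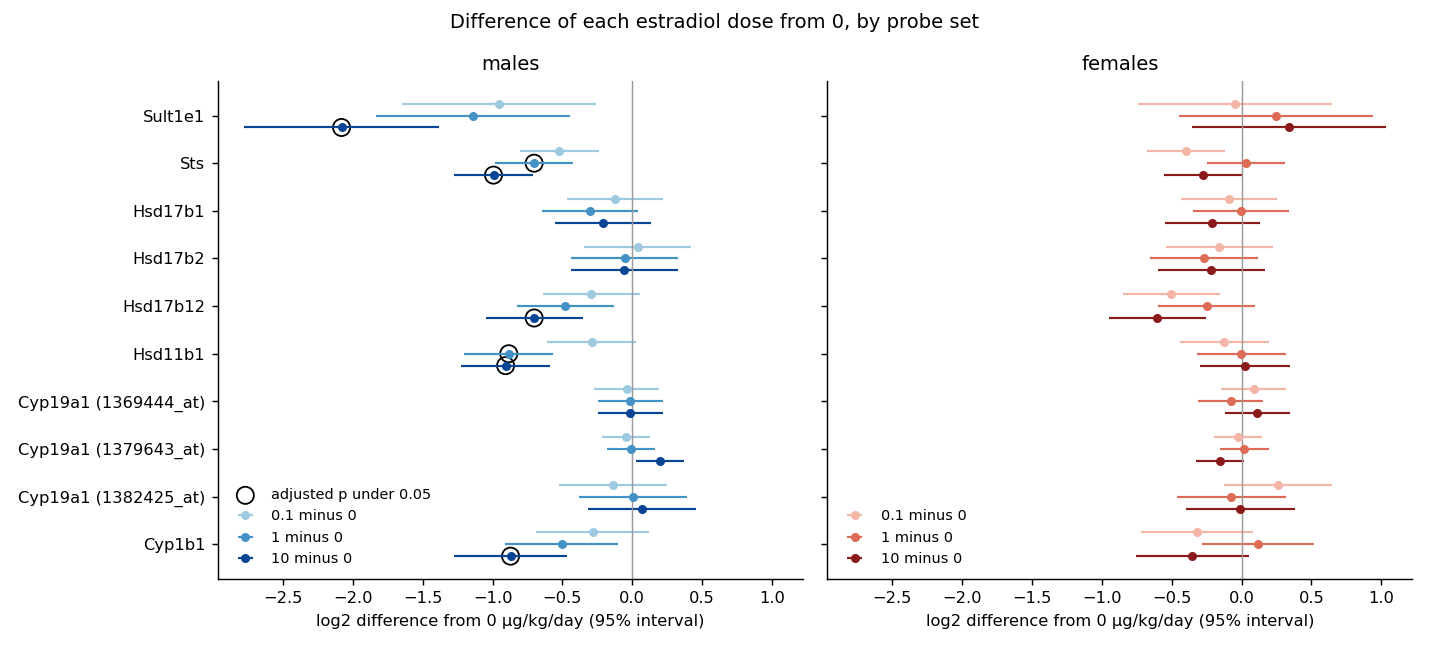
Difference from dose 0 of the same sex (horizontal axis, log2) for each of the 10 probe sets at each dose, with males in the left panel and females in the right. Points are limma estimates, bars are 95% intervals, and a black ring marks an adjusted p under 0.05. The rings are on 5 male differences at 10 and 2 at 1, all below 0, and on no female difference.

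Across doses in males, the means of Sult1e1, Sts, Hsd17b12, Hsd11b1 and Cyp1b1 stood in the same order, highest at 0, then 0.1, 1 and 10. No 2 neighbouring doses in that order differed past the threshold for any member. For Hsd11b1, 10 differed from 1 by only -0.02 ± 0.15. These genes were picked by their fall at 10, so a mean at 10 below that at 0 was given in advance. The share of all probe sets with the same order was not counted. For all 10 probe sets, the group means of each sex were also sorted, and groups next to each other in that ranking were compared. In limma 0 of these 60 pairs passed the threshold, and 6 had an unadjusted p under 0.05. The smallest adjusted p, 0.104, was that of Cyp19a1 (1379643_at) in males at 10 against 0. Such pairs are not always steps of dose, and sorting picks the smaller gaps. Over all probe sets, the share that differed between doses above 0 in males was 0.0129% for 1 against 0.1 and 0.387% for 10 against 1, and in females it was 0.0129% for 1 against 0.1, 0.944% for 10 against 0.1 and 0.267% for 10 against 1. At 1, 2 of the 10 probe sets fell in males (Sts and Hsd11b1), where 2.1% of all probe sets fell and 3.63% changed in either direction. At 0.1, 0 were called in males, where 0 of all 31042 probe sets were (3703 at an unadjusted p under 0.05), and 2 members had an unadjusted p under 0.05. In females 0 were called at 0.1 and at 1, and over all probe sets 0 were called at either dose. At these female doses 2 and 0 members had an unadjusted p under 0.05, beside 3083 and 847 of all 31042 probe sets. The interactions at 0.1 and 1 gave 0 member calls, and 0 and 0.0483% of all probe sets passed. For them 0 and 4 members had an unadjusted p under 0.05, beside 2266 and 3059 of all 31042 probe sets. The female means of the 5 genes kept no common order: Sult1e1 ran highest at 10 and Sts at 1. The comparisons within a sex share their 3 control arrays, so these values are not independent of each other.

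The enzymes that fell varied together over the male arrays. Among Sult1e1, Sts, Hsd17b12, Hsd11b1 and Cyp1b1 the 10 pairwise Pearson correlations over 12 male arrays ran from 0.64 to 0.90, with a median of 0.79. Over the 12 female arrays they ran from -0.13 to 0.73, with a median of 0.51. These correlations include the dose differences themselves, and the arrays share their dose groups.

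Markers of fat cells moved with the same groups. The mean of 20 white adipocyte genes, among them Adipoq, Plin1 and Fabp4, lay between -0.81 and -0.59 in males at 10, against 0.37 to 0.50 at 0. In females it lay between -0.48 and -0.26 at 10, against 0.27 to 0.50 at 0, and in neither sex did the groups overlap. Of 30 adipocyte probe sets, 26 fell and 0 rose in males at 10, and 18 fell and 0 rose in females. Of all probe sets, 9.64% fell in males and 1.05% in females. Over the male arrays the correlation with this mean was 0.96 for Sts, 0.94 for Hsd17b12, 0.88 for Hsd11b1, 0.88 for Cyp1b1 and 0.84 for Sult1e1. Over the female arrays it was 0.86 for Sts, 0.89 for Hsd17b12, 0.48 for Hsd11b1, 0.76 for Cyp1b1 and -0.09 for Sult1e1. Other lists gave correlations as high for some enzymes: that of Sts with the endothelial mean was 0.96 in males and 0.85 in females, and Cyp1b1 correlated at 0.93 with the mast cell mean in males and at 0.89 with the endothelial mean in females. Female Sult1e1 did not track the adipocyte mean, although 18 of the 30 probe sets behind it fell in females.

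With the adipocyte mean as a covariate in limma, 0 of the 10 probe sets passed the threshold in males at 10 (1 at an unadjusted p under 0.05), and 5 of all 31042 did. The Sult1e1 difference was then -1.77 ± 0.74 (adjusted p = 0.852), and those of Sts, Hsd11b1, Cyp1b1 and Hsd17b12 were -0.08, -0.15, 0.02 and 0.27. The adipocyte mean did not overlap between males at 10 and males at 0, so in this comparison it cannot be told apart from dose over these arrays. Genes of the luminal epithelium moved the other way: 7 of 24 probe sets rose and 0 fell in males at 10, and 3 rose and 0 fell in females. Of 20 probe sets of the basal epithelium, 6 rose and 1 fell in males, and 2 rose and 0 fell in females. Endothelial genes fell in 11 of 14 probe sets in males and 3 of 14 in females, and mast cell genes in 9 of 13 and 6 of 13. Of 16 fibroblast probe sets, 7 fell in males and 0 in females, and of 12 keratinocyte probe sets 7 rose in males and 0 in females. Hepatocyte genes fell in 4 of 21 probe sets in males and 2 of 21 in females. Skeletal muscle genes fell in 2 of 20 in males, both of 1 gene, and 0 of 20 in females. Beside these counts, 9.64% of all probe sets fell and 7.81% rose in males at 10, and 1.05% and 0.812% in females. The muscle share in males lay near that of all probe sets. None of 13 B and T cell probe sets was called in either sex, and of 13 macrophage probe sets 0 were called in males and 1 rose in females. The part of these cell types in the enzyme values was not tested.

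An indirect measure of RNA quality also differed between groups, in both sexes. The difference between 3′ and 5′ probe sets of beta-actin lay between -0.02 and 0.16 in males at 10, against -0.56 to -0.06 at 0. In females it lay between -0.05 and 0.01 at 10, against 0.02 to 0.06 at 0. Female values ran from -0.36 to -0.07 at 0.1 and from -0.11 to -0.01 at 1. With it as a covariate, 2 of the 10 probe sets passed the threshold in males at 10, Sts and Hsd11b1. The difference of Sult1e1 was then -1.63 (adjusted p = 0.0582), that of Hsd17b12 -0.65 (adjusted p = 0.158) and that of Cyp1b1 -0.52 (adjusted p = 0.296). The count over all probe sets in this fit is not set beside these, so the losses are not read as particular to these enzymes.

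**Figure D3:**
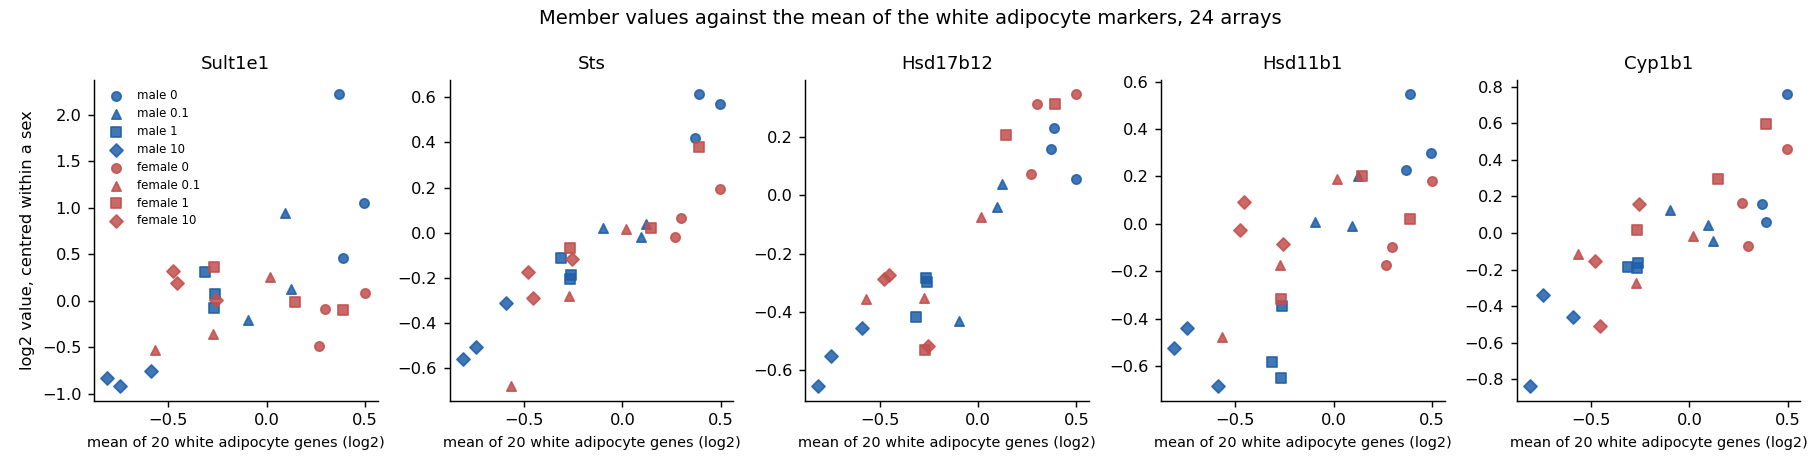
Values of Sult1e1, Sts, Hsd17b12, Hsd11b1 and Cyp1b1 (vertical axis, log2 value centred within each sex) against the mean of 20 white adipocyte genes on the same array (horizontal axis, log2). Each point is 1 array, blue for males and red for females, with a shape for each dose. Sts and Hsd17b12 rise with the adipocyte mean in both sexes, and female Sult1e1 stays flat across it.

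The genes whose values were most like those of each called enzyme were taken over all 24 arrays, as the 5 highest Pearson correlations. For Sult1e1 they were Fgf1, a fibroblast growth factor, Pter, Adk, Agpat1 and Colgalt1, with r from 0.82 to 0.86. For Sts they were Echdc3, Zfp423, Aifm2, Itga7 and Ghr, the growth hormone receptor, with r from 0.94 to 0.95. For Hsd17b12 they were Pygl, Slc25a1, Thrsp, Pc and Mdh1, with r from 0.95 to 0.96. Pygl breaks down glycogen, Slc25a1 carries citrate out of mitochondria, and Pc, pyruvate carboxylase, makes oxaloacetate. For Hsd11b1 they were Tmem120b, Abcc3, Htra3, Rbks and Cep15, with r from 0.85 to 0.87. For Cyp1b1 they were Aox1, Adgrf5, Zeb2, Cd93 and Sox17, with r from 0.88 to 0.93, and Cd93 and Sox17 are known from endothelium. Within a sex the 5 genes correlated with Sult1e1 at 0.87 to 0.93 over the male arrays, and at 0.29 (Fgf1) to 0.75 (Agpat1) over the female arrays. These genes were chosen over the same arrays, where the male Sult1e1 values had the wider range, so the choice itself favours a high male correlation. No difference between the sexes is read from these values.

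The rest of the pathway was read from 6 lists that hold 107 genes and none of the members, of which 88 genes were measured by 110 probe sets. In males at 10, 29 of these probe sets fell (26.4%) and 6 rose (5.45%), beside 9.64% and 7.81% of all probe sets. In females at 10, 3 fell and 3 rose (2.73% each), beside 1.05% and 0.812% of all. In males at 1, 6 fell (5.45%) and 2 rose (1.82%), while among all 31042 probe sets 652 fell (2.1%) and 475 rose. The interaction at 10 called 0 of the 110 in limma, where 1.28% of all probe sets passed. At an unadjusted p under 0.05 were 22 of the 110, beside 5908 of all 31042. With array weights 15 of the 110 passed, and the count over all probe sets in that fit is not set beside it. Without the 5 arrays of high hepatocyte mean 21 passed in males at 10 and 0 in females, with 37 and 21 at an unadjusted p under 0.05. The calls lost there in males among the genes named next are those of Papss1, Sumf2, H6pd, Hsdl2, Abcg2 and 1 Slco3a1 probe set, with adjusted p values from 0.0532 to 0.0977, and in females all of them.

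In the list of sulfation and desulfation, 7 of 25 probe sets fell and 1 rose in males at 10, and the median difference was -0.17. Sult1a1, a sulfotransferase for phenols that also accepts estrogens, read -0.94, -1.54 and -1.23 in males at 10, against 0.53, 0.73 and 0.33 at 0. The groups lay well apart (-1.77 ± 0.30, adjusted p = 0.000557), and in females the difference was -0.25 ± 0.30 (adjusted p = 0.809). The interaction of -1.52 ± 0.42 missed the threshold (adjusted p = 0.0764). The 2 enzymes that make the sulfate donor PAPS went opposite ways: both Papss2 probe sets fell in males (-0.64 ± 0.13 and -1.06 ± 0.18, adjusted p = 0.00295 and 0.000587), and Papss1 rose (0.55 ± 0.14, adjusted p = 0.0131). The Papss1 rise was lost without replicate 1 of the males at 0 (adjusted p = 0.072) or replicate 11 at 10 (0.0519). In females 1 Papss2 probe set fell (-0.55 ± 0.13, adjusted p = 0.0376), and this call was lost without replicate 1 or 2 at 0 or replicate 10 or 11 at 10, with adjusted p values from 0.0707 to 0.184. Sumf2, a paralogue of the factor that activates sulfatases such as Sts, fell in males by 1 of its 2 probe sets (-0.40 ± 0.09, adjusted p = 0.00701).

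Among hydroxysteroid dehydrogenases and reductases, 5 of 27 probe sets fell and 1 rose in males at 10. Besides H6pd, Akr1c19, an aldo-keto reductase, fell (-0.73 ± 0.18, adjusted p = 0.00814), a call lost without replicate 11 of the males at 10 (0.0586). Hsdl2, a peroxisomal dehydrogenase-like protein, fell by 1 of its 2 probe sets (-0.87 ± 0.19, adjusted p = 0.00422), while the other gave -0.33 ± 0.15 (adjusted p = 0.137). Hsd17b7, which reduces estrone to estradiol in rodents and also works in cholesterol synthesis, fell in females by both probe sets. They gave -0.62 ± 0.12 (adjusted p = 0.00914) and -0.41 ± 0.09 (adjusted p = 0.0245), against -0.20 ± 0.12 and -0.06 ± 0.09 in males, which missed the threshold. The first probe set read -0.35, -0.41 and -0.33 in females at 10, against 0.21, 0.30 and 0.27 at 0, with no overlap. The second was lost without replicate 1 or 3 of the females at 0 or any 1 array at 10, with adjusted p values from 0.0567 to 0.131. The sexes were not shown to differ, since the interactions were 0.42 ± 0.16 (adjusted p = 0.184) and 0.35 ± 0.13 (adjusted p = 0.168).

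In the list of steroid synthesis, 7 of 16 probe sets fell and 1 rose in males at 10, and 0 were called in females (4 at an unadjusted p under 0.05). Por, which hands electrons to microsomal cytochromes such as aromatase and Cyp1b1, fell by both probe sets (-0.996 ± 0.15 and -0.68 ± 0.13, adjusted p = 0.000204 and 0.00176). Hsd3b7, an enzyme of bile acid synthesis, fell (-0.83 ± 0.13, adjusted p = 0.000277), as did the mitochondrial cholesterol-binding protein Tspo (-0.79 ± 0.14, adjusted p = 0.000758). Cyp11a1, the side-chain cleavage enzyme, gave -0.78 ± 0.20 (adjusted p = 0.0129), a call lost without replicate 1 of the males at 0 (0.084) or replicate 11 at 10 (0.0834). In the list of hydroxylation, methylation and glucuronidation 0 of 14 probe sets passed in limma in either sex. At an unadjusted p under 0.05 were 3 in males and 1 in females, beside 9979 and 4040 of all 31042 probe sets at 10. The smallest p in this list was that of Cyp3a18 in males (-0.68 ± 0.24, adjusted p = 0.0515).

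Carriers of steroid sulfates made a list of 17 probe sets, of which 4 fell and 1 rose in males at 10. Slco2b1, which brings estrone sulfate into cells, fell by both probe sets (-1.11 ± 0.15 and -0.68 ± 0.13, adjusted p = 6.84e-05 and 0.00168), and Slco3a1, another organic anion carrier, by both of its own (-0.72 ± 0.14 and -0.64 ± 0.15, adjusted p = 0.00177 and 0.0074). In females the 4 differences lay between -0.42 and -0.18 and none passed. Abcg2, which pumps sulfated estrogens and other compounds out of cells, rose in both sexes. In males it read 0.14, -0.01 and 1.40 at 10, against -0.78, -0.31 and -0.05 at 0, so that replicate 12 held most of the rise. The male difference of 0.89 ± 0.27 (adjusted p = 0.0276) was lost without that array (0.159) or without replicate 1 at 0 (0.154). In females Abcg2 read 1.59, 1.32 and 0.88 at 10, against -0.03, -0.46 and -0.07 at 0, a rise of 1.45 ± 0.27 (adjusted p = 0.00861) that was lost without replicate 10 at 10 (0.0609).

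Of 11 probe sets for steroid receptors, 6 fell and 2 rose in males at 10, and 2 rose in females. Pgr, the progesterone receptor and a classical estrogen target, read 1.65, 2.35 and 1.40 in males at 10, against -1.18, -1.08 and -1.13 at 0. The groups lay far apart (2.93 ± 0.32, adjusted p = 1.36e-05). The female difference was 1.42 ± 0.32 (adjusted p = 0.0281) and was lost without any 1 of replicates 1 and 3 at 0 and 10 and 11 at 10, with adjusted p values from 0.101 to 0.144. Esrrb, an orphan receptor related to the estrogen receptors, rose by 1.25 ± 0.19 in males and 1.06 ± 0.19 in females (adjusted p = 0.000229 and 0.00739), and the female call was lost without replicate 10 at 10 (0.0532). The estrogen receptor Esr1 fell in males (-0.64 ± 0.18, adjusted p = 0.0174), a call lost without replicate 1 at 0 (0.127) or replicate 10 at 10 (0.0526). In females its difference was -0.27 ± 0.18 (adjusted p = 0.581). Gper1, a membrane receptor that responds to estrogen, fell in males (-0.52 ± 0.12, adjusted p = 0.00551).

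**Figure D4:**
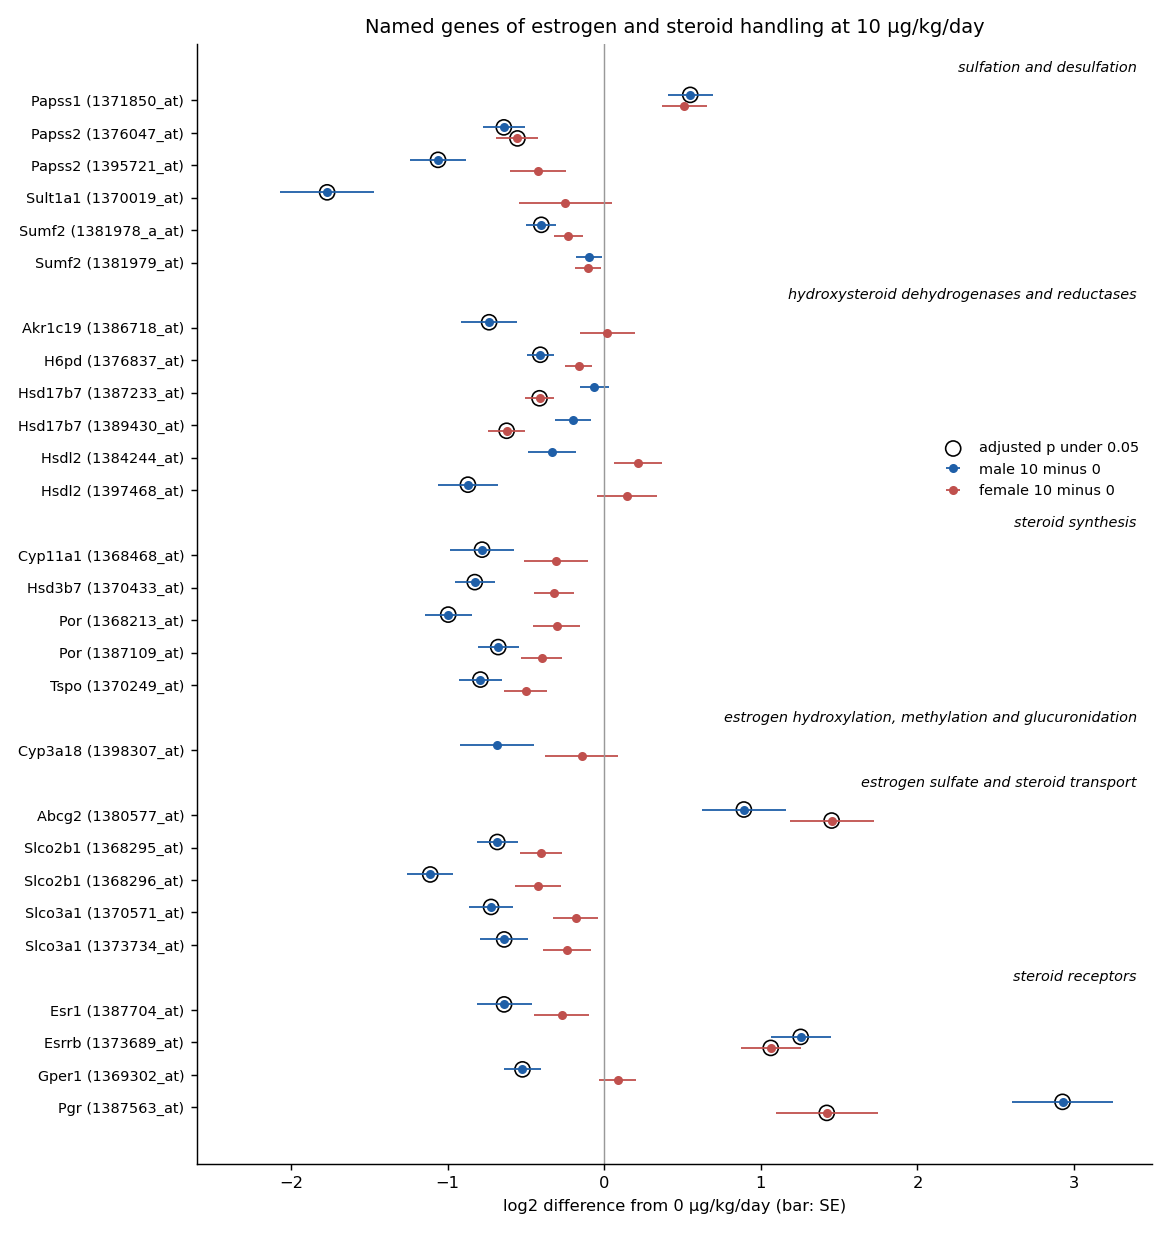
Differences from dose 0 at 10 µg per kg per day (horizontal axis, log2) for the named genes of the 6 pathway lists, 1 row per probe set, males blue and females red. Points are limma estimates, bars are 1 SE to either side, and a black ring marks an adjusted p under 0.05. Sult1a1, Slco2b1, Papss2 and Por lie furthest below 0 in males, and Pgr lies furthest above it.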

How the data were processed

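RNA from whole abdominal mammary gland pairs was measured on 24 Affymetrix arrays. The authors deposited 1 table of log2 values (the base is not stated and was taken as 2), with 31099 probe sets and no missing value. GCOS is named without a version per the submitters' processing notes. How probe sets were summarized, normalized and centred is not given in the sources used here. Within each sex the smallest positive and smallest negative value of a probe set matched in size, to 2e-06, in 42.3% of probe sets for male arrays and 45.7% for female arrays, and a male with a female value in 0.139%, so values were centred within a sex. The median over the 12 arrays was 0, to the same tolerance, in 12.9% of probe sets for males and 14.8% for females, and which arrays set the centre is not given in the sources used here. The planned comparison of males with females at 0 was therefore not made.

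Groups came from the sample titles. After 57 control probe sets were left out, the other 31042 were tested in limma 3.58.1 (R 4.3.3) by lmFit and eBayes with a mean for each of the 8 groups (16 residual and 2.95 prior degrees of freedom), with Benjamini-Hochberg adjustment across these probe sets. The script was tested on simulated data. By the annotation of the platform, 20826 probe sets have 1 gene, 436 several and 9780 none. Of the 8 member genes, 7 matched RefSeq by gene number and Sult1e1 by symbol and accession. Array medians lay between -0.02 and 0.01 and no further normalization was applied. The number of arrays limits the precision, and no depth or signal over background is known.

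The members, the pathway and marker lists and the tests were chosen with earlier results of these data known. The genes named are all members, up to 4 called genes of each pathway list with the smallest adjusted p at 10 (the one with the smallest p where none was called), Esr1, and the 5 genes most correlated with each called member. The alternatives were other normalizations and array weights, fits on fewer arrays, the marker means and beta-actin as covariates, and each array left out. The fits without the 2 widest arrays were chosen after seeing the data. So were all alternatives for the pathway counts and for groups next to each other in the order of their means.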

Additional observations from a re-analysis of the deposited data

Results flagged for a closer look

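For 2 enzymes a difference between males and females in the response to 10 µg per kg per day passed the threshold. The test was of the difference itself, the interaction in limma. Sult1e1 had an interaction of -2.42 ± 0.47 (log2, male difference from 0 minus female difference from 0, adjusted p = 0.0218). All 3 male arrays at 10 lay below the 3 at 0, as in 18.9% of all probe sets, and the female groups overlapped. Hsd11b1 had an interaction of -0.93 ± 0.22 (adjusted p = 0.0389), again with the males apart and the females overlapping. Among all probe sets 1.28% passed for the interaction. The Sult1e1 call was kept in 9 of 12 fits without 1 array, and the Hsd11b1 call in 2 of 12. Both calls were lost with the adipocyte mean or the beta-actin difference as a covariate. With groups of 3, single arrays were not tested as outliers.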

How the results depend on the processing

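Of the comparisons of a dose with 0, the 5 member calls in males at 10 stood in every fit without 1 array. They were 0 with the adipocyte mean as a covariate, and 2 with the beta-actin difference. With the adipocyte mean Hsd17b12 (0.27), Cyp1b1 (0.0155), Cyp11a1 (0.58), Sult1a1 (0.0197), 1 Slco3a1 probe set (0.0902) and H6pd (0.00497) turned to the other sign. The Hsd17b12 call was also lost after quantile normalization. It was lost too without the arrays of high hepatocyte mean, where 1 male control is left. The 2 calls in males at 1 became 4 with array weights, 0 with the adipocyte mean and 0 without the arrays of high hepatocyte mean, and 1 to 2 without 1 array (1 without replicate 1 of the males at 0). The 0 calls in males at 0.1 became 1 with array weights and 1 with beta-actin. The 0 calls in females became 2 at 0.1 and 1 at 10 with array weights, and 0 to 1 at 0.1 without 1 array (Sts, without replicate 4 at 0.1). The 0 calls of the interaction at 1 became 2 with array weights. The 2 calls of the interaction at 10 became 4 with array weights, 1 after quantile normalization, 0 with the adipocyte mean, 0 with beta-actin, 1 without the arrays of high hepatocyte mean, and 0 to 2 without 1 array (0 without replicate 2 or 3 of the females at 0 or replicate 10 of the females at 10).

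Of the 110 pathway probe sets, the 35 calls in males at 10 became 0 with the adipocyte mean, 21 with hepatocyte and muscle means, 8 with beta-actin, 21 without the arrays of high hepatocyte mean and 19 to 36 without 1 array (19 without replicate 1 at 0, 21 without replicate 11 at 10). The 8 in males at 1 became 13 with the arrays of the sex alone, 19 with array weights, 5 after quantile normalization, 0 with the adipocyte mean, 1 without the arrays of high hepatocyte mean, 2 without the 2 widest arrays and 1 to 9 without 1 array. The 6 in females at 10 became 2 with only the groups compared, 1 with the arrays of the sex alone, 0 with the adipocyte mean, 0 without the arrays of high hepatocyte mean and 1 to 5 without 1 array (1 without replicate 10 at 10, 3 without replicate 1 at 0 or 11 at 10). The 0 of the interaction at 10 became 1 with only the groups compared, 15 with array weights, 2 with hepatocyte and muscle means, 4 without the arrays of high hepatocyte mean and 0 to 5 without 1 array (5 without replicate 1 of the females at 0). The 0 of 60 pairs of groups next to each other in the order of their means became 1 with only the groups compared. They became 2 with array weights and 1 with beta-actin. The cause of these changes was not tested. With the adipocyte mean in males at 10, calls over all probe sets were also few, as given above. Counts over all probe sets in the other fits are not set beside these. A drop is therefore not read as particular to the members or the lists.

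Arrays of males and females carry the same replicate numbers, but the labels do not say that a number pairs them. The deviations of same-numbered arrays correlated above 0.1 in 5 of 12 pairs (range -0.485 to 0.592). With the replicate number as a block, the interaction at 10 called 1 member (Sult1e1) and 1 of the 110 pathway probe sets, and Hsd11b1 had an adjusted p of 0.0627. With the block as random (correlation 0.106) within a sex, no count of members or pathway probe sets called against 0 changed. Of all recomputed counts 227 stayed within 1.5 times their value, 42 were lower and 21 higher. Signal over background is not known, so whether a member was measured above it could not be judged.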
